A study of Mus musculus with 6 samples.

Results

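A promoter peak of H3K27me3 after dihydrotestosterone (DHT) was listed for 55 genes, of 3787 genes named in any of the deposited lists. These 55 DHT promoter genes were chosen by the peaks themselves: a gene entered the list when a peak called in DHT-treated cells lay within 1 kb of its transcription start site. They were split by whether the control promoter list also named them, which gave 11 genes in both promoter lists and 44 in the DHT list alone. The remaining 149 genes of the control promoter list were used for comparison. Listing in a promoter therefore describes the choice and is not a finding.

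The material was primary granulosa cells, the somatic cells that surround and support the oocyte, from ovaries of wild type C57BL/6J mice aged 8 to 9 weeks. Cells pooled from 30 mice per the labels (the methods of the study give a larger number) were plated in 6 dishes, of which 3 received no agent (control) and 3 received 25 nM DHT, a non-aromatizable androgen, for 24 h. The same H3K27me3 antibody was used in all 6 samples, and a vehicle for the control dishes is not named. The files hold 1 pooled list per group, so no value carries an error between replicates, read depth is unknown, and a test of DHT against control was not possible. The lists give presence or absence for a gene, and the height of the peak behind each entry is not recorded, so no gene just inside or just outside the calling threshold can be named. No expression values were used, so granulosa cell identity could not be checked by RNA. Of 8 granulosa cell marker genes looked up (Foxl2, Amh, Fshr, Cyp19a1, Inha, Inhba, Hsd17b1 and Nr5a2), 0 were in a promoter list, and neither were Cyp17a1 and Insl3 of theca cells. The DHT and control promoter lists held 0.206% and 0.604% of curated genes, so these absences say nothing of cell identity. Among the markers, the control gene body list named Cyp19a1 and Fshr, and the DHT gene body list named Nr5a2 and Fshr.

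H3K27me3 is placed on histone H3 by the Polycomb repressive complex with EZH2 as its catalytic subunit, and is removed by the demethylases KDM6A and KDM6B. In mammalian cells the mark is best known at CpG-rich promoters of silent developmental regulators, where it covers the start site and often spreads into the gene. Peaks at promoters were a small part of each list here. The control list had 160 promoter genes among 16345 peaks, or 9.79 genes per 1000 peaks, and the DHT list had 55 among 3975 peaks, or 13.8 per 1000. Thus the DHT promoter list was 34.4% as long as the control promoter list, while the peak list was 24.3% as long. With the peaks limited to q-values up to 0.01 the latter ratio was 41.4%, and up to 0.001 it was 70.4%.

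To ask where else these genes carried a called peak, each was looked up in the gene body lists. In the DHT gene body list 30 of 55 genes (54.5%) were found, where 4.36% of 26180 curated RefSeq genes were listed. In the control gene body list 13 of 55 genes (23.6%) were found, against 12.0% of all genes. The promoter window reaches into the gene, so 1 peak can place a gene in both DHT lists, and the first of these shares follows in part from the choice of genes. A control peak can do the same, and 6 of the 13 genes were also in the control promoter list. Of the 44 genes outside that list, 7 (15.9%) were in the control gene body list. The control promoter list named 11 of 55 genes (20%), against 0.604% of all genes. The DHT promoter list itself held 0.206% of curated genes, with 54 of its 55 symbols matched.

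**Figure D1:**
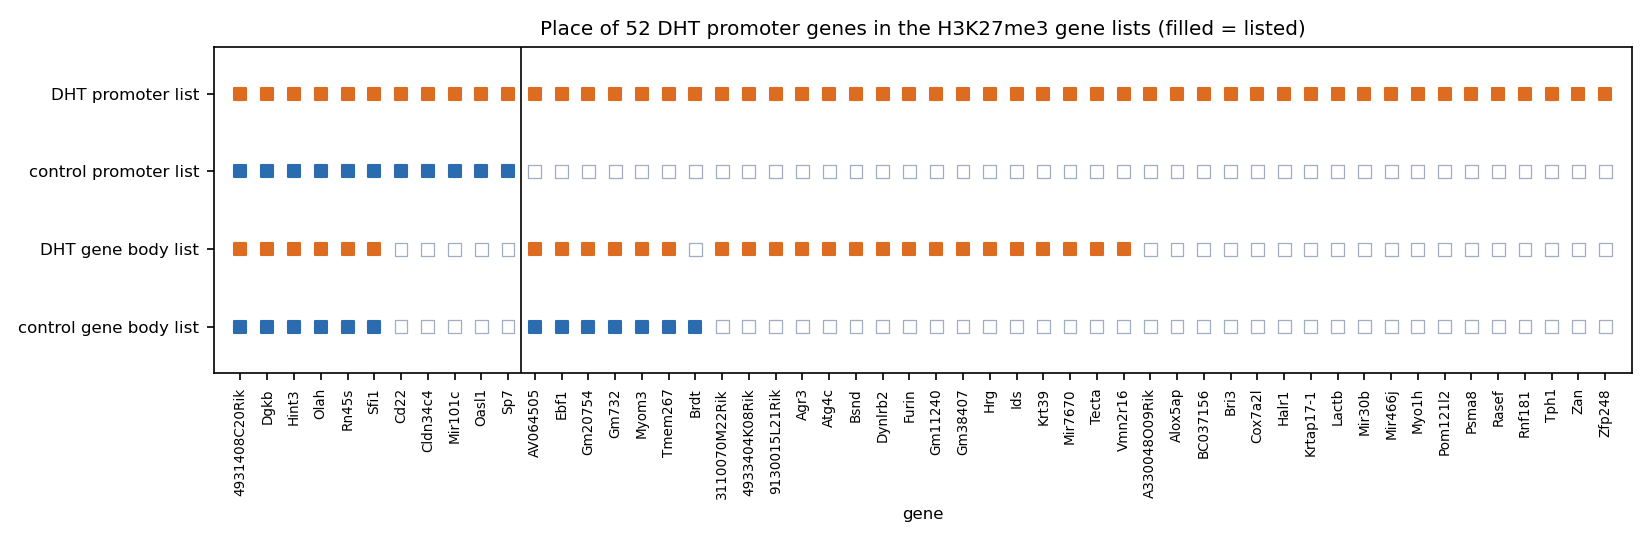
Each column is 1 of 52 DHT promoter genes and each row is 1 deposited list, with filled squares for listed genes (orange for DHT, blue for control). The vertical line separates the 11 genes of both promoter lists from 41 genes of the DHT promoter list alone. Gene body entries of the 11 were the same in control and DHT, which can follow from the choice of genes.

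The 11 genes with a promoter peak in both groups fell into 2 patterns. Olah, 4931408C20Rik, Dgkb, Sfi1, Hint3 and Rn45s were in all 4 lists. Cd22, Oasl1, Mir101c, Sp7 and Cldn34c4 were in both promoter lists and in neither gene body list. For each of these 11 genes, the gene body entry was thus the same in control and DHT. A peak shared by both groups could set both entries, since the promoter window reaches into the gene. The match can therefore follow in large part from the choice of genes, and nothing is read from it. OLAH is a thioesterase that releases fatty acids, DGKB is a diacylglycerol kinase of brain, SFI1 is a centrosome and spindle protein, HINT3 is a histidine triad nucleotide hydrolase and Rn45s is the precursor of ribosomal RNA. CD22 is an inhibitory receptor of B cells, OASL1 belongs to the interferon-induced oligoadenylate synthetase family, and SP7 (osterix) is the transcription factor that drives osteoblast formation.

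Of the 44 genes with a promoter peak in the DHT list alone, 24 (54.5%) were in the DHT gene body list and 7 (15.9%) in the control gene body list. All curated genes gave 4.36% and 12.0%, so the control share was near that of all genes. The median length of the 44 genes was 21643.5 bp, against 14323 bp for all genes. The largest groups were 19 genes in no other peak list and 18 genes that were also in the DHT gene body list and in no control list. The 18 genes included Furin, Mir7670, Vmn2r16, Bsnd, Atg4c, Gm11240, 9130015L21Rik, Dynlrb2, 4933404K08Rik, 3110070M22Rik, Gm38407, Agr3, Krt39, Tecta, Ids and Hrg. A further 6 genes, Myom3, Gm20754, Tmem267, Ebf1, AV064505 and Gm732, were in both gene body lists, so a peak had been called within them in control cells as well. Brdt stood alone, with a DHT promoter peak and a gene body entry in control and not in DHT. BRDT is a bromodomain protein of male germ cells.

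The genes of the control promoter list alone were looked up in the same way. Of these 149 genes, 77 (51.7%) were in the control gene body list and 7 (4.70%) in the DHT gene body list, the latter against 4.36% of all genes. For both sets of genes, the entries in the gene body list of the same condition rest on the peaks that chose the genes, so those shares are set in large part by the choice and nothing is read from them.

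Gene length bears on such entries, since a long gene offers more room for a peak. The 54 genes with a position in GRCm38.p6 had a median length of 20120 bp (quartiles 7760 and 56112 bp), compared with 14323 bp for all curated genes. Among all genes the share in the DHT gene body list rose from 0.258% under 10 kb to 27.1% over 100 kb. For the DHT promoter genes it was 50% (8 of 16) under 10 kb, 45% (9 of 20) from 10 to 30 kb and 53.8% (7 of 13) from 30 to 100 kb, and the 5 genes over 100 kb were all listed. In the control gene body list the corresponding shares of these genes were 12.5%, 15%, 23.1% and 80%, where all genes gave 0.966%, 5.41%, 19.8% and 61.3%. These shares of the DHT promoter genes include genes that were also in the control promoter list. The like shares for genes of the control promoter list alone in the control gene body list were 32.8%, 53.8%, 53.6% and 96.3%. For these, as for the DHT promoter genes in the DHT gene body list, the peaks that chose the genes also fill the gene body list. The 5 longest genes were Dgkb (754071 bp), Gm20754 (528480 bp), Ebf1 (389997 bp), Tmem267 (122374 bp) and Atg4c (108100 bp), of which Atg4c was absent from the control gene body list.

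**Figure D2:**
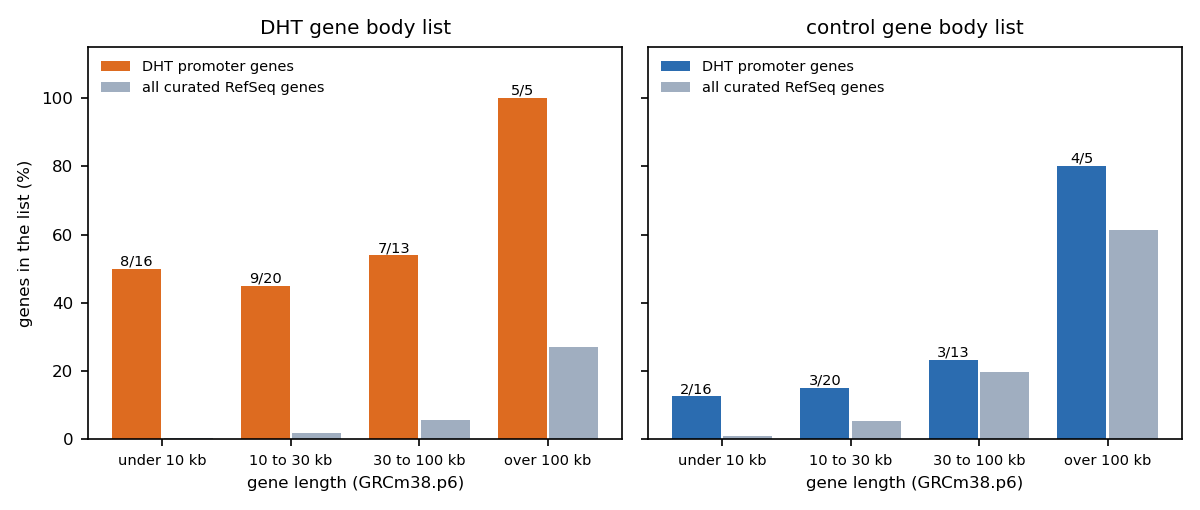
Bars give the percentage of genes in the DHT (left) and control (right) gene body lists by gene length in GRCm38.p6, for DHT promoter genes (coloured, with counts above) and for all curated RefSeq genes (grey). The DHT bars lie at 45 to 53.8% up to 100 kb and rest on the peaks that chose the genes, while the control bars rise from 12.5 to 80%. The coloured control bars include genes that were also in the control promoter list.

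To ask whether any of these genes changed in expression after DHT, the lists of regulated genes were searched. These lists held 22 upregulated and 15 downregulated genes with a gene body peak, and 66 upregulated and 33 downregulated genes linked to an enhancer. Of the 55 DHT promoter genes 0 were in any of the 4 lists, which allows a share of up to 5.45%, where 0.439% of all curated genes were listed. The 149 genes of the control promoter list alone also had 0 entries. A gene had to meet a gene body peak or an enhancer link to enter these lists, so a regulated gene with a promoter peak and neither of these would not appear.

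By annotation, 41 of the 54 matched genes (75.9%) were protein-coding, 9 (16.7%) were long non-coding RNA genes and 4 (7.41%) were microRNA genes, compared with 80.2%, 12.7% and 4.69% of all curated genes. The 9 long non-coding RNA genes were all in the DHT list alone. The control promoter list alone held 13 such genes (8.78%) and 9 microRNA genes (6.08%). It also held 16 olfactory receptor genes (10.7%), against 4.24% of all genes. The DHT promoter genes included 0 olfactory receptor genes, which allows up to 5.45%.

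Regulators of transcription and chromatin numbered 4 among the 55 genes: Ebf1, Sp7, Zfp248 and Brdt. The shares of this and the following classes of function among all genes were not counted. EBF1 directs B cell and adipocyte differentiation, and its gene was in both gene body lists. Of the 4 EBF genes, Ebf1, Ebf2 and Ebf4 were in the control gene body list, and Ebf1 was the one in the DHT lists. Sp7 was the single gene of the 9 Sp factors in a promoter list, and Sp3 was in the control gene body list. Among the 4 BET bromodomain genes, the DHT promoter list held Brdt and the control promoter list held Brd3. Zfp248 encodes a zinc finger protein and was in the DHT promoter list alone, whereas 5 other Zfp genes (Zfp169, Zfp189, Zfp40, Zfp438 and Zfp68) were in the control promoter list.

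The class of enzymes and metabolism, as assigned here, held 7 genes, with Dgkb, Atg4c and Rnf181 placed in other classes. The share of such genes among all genes was not counted. Furin encodes the proprotein convertase that cleaves precursors of TGF-beta family ligands and receptors, and was in the DHT promoter and DHT gene body lists. Of the 9 convertase genes, Pcsk5 was also in the DHT gene body list, and Pcsk1 and Pcsk2 were in the control gene body list. Tph1, for the rate-limiting step of serotonin synthesis outside the brain, had a DHT promoter peak and no gene body entry, while its paralog Tph2 was in the control gene body list. Ids (iduronate sulfatase of lysosomes) and Agr3 (a member of the protein disulfide isomerase family) were in both DHT lists.

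Immune and lipid mediator genes were Cd22, Oasl1, Alox5ap and Hrg. Alox5ap encodes the protein that presents arachidonic acid to 5-lipoxygenase, and it was the 1 gene of 8 for leukotriene synthesis and receptors in any of the peak lists. Hrg encodes histidine-rich glycoprotein of plasma, and was in both DHT lists. Cd22 was the 1 Siglec of 9, and Oasl1 the 1 gene of 12 in the OAS family, with an entry in any peak list.

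Several genes are known for roles in other tissues. They were grouped by known function, and the share of such genes among all genes was not counted. Krt39 and Krtap17-1 are hair genes in the keratin clusters of chromosome 11, and were the 1 keratin of 54 and the 1 keratin-associated gene of 55 in a promoter list. Tecta encodes alpha-tectorin of the inner ear, Bsnd encodes barttin, a chloride channel subunit of kidney and inner ear, and Myom3 encodes a myomesin of the sarcomere. Zan (zonadhesin of sperm), Psma8 (a proteasome subunit of spermatocytes) and Brdt act in male germ cells. Vmn2r16 is a vomeronasal receptor, 1 of 122 genes of its class, of which 14 others were in the control gene body list and Vmn2r90 was in the DHT gene body list. Cldn34c4 was 1 of 32 claudin genes, of which Cldn10 was also in the control promoter list.

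Genes of general cell functions were also present. Cox7a2l is linked to the assembly of respiratory supercomplexes, which was not examined in these mice, and Lactb is a mitochondrial serine protease-like protein. Atg4c processes LC3 proteins in autophagy and was the 1 of 4 ATG4 genes in any peak list. Rnf181 is a ubiquitin ligase, Rasef is a Rab family GTPase, Dynlrb2 is a dynein light chain and Myo1h is a class I myosin. Of the 10 diacylglycerol kinase genes, Dgkb was the 1 in a promoter list, while Dgkg and Dgkk were in both gene body lists and Dgkh in the control one. Of the 8 class I myosins, Myo1d and Myo1e were in the control gene body list. Tmem267, Pom121l2, Bri3, BC037156, 4931408C20Rik and Gm732 have less defined functions.

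The 9 long non-coding RNA genes were Halr1, which lies beside the Hoxa cluster, Gm11240, Gm20754, 9130015L21Rik, 4933404K08Rik, 3110070M22Rik, A330048O09Rik, Gm38407 and AV064505. Of these, 7 were in the DHT gene body list and 2 (Gm20754 and AV064505) were in the control gene body list as well. Some list entries could rest on 1 peak, since promoter windows overlap where starts lie within 2 kb. This held for 9 of the 54 matched genes, and the share among all genes was not counted. In 2 divergent pairs both partners were DHT promoter genes: Rasef with Gm11240, and Tmem267 with 3110070M22Rik. Furin, Oasl1 and Sfi1 each had 1 partner that was in none of the peak lists.

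The 4 microRNA genes were Mir101c, Mir7670, Mir466j and Mir30b. MicroRNAs repress messenger RNAs that match their seed, bases 2 to 8, and the miR-101 family is known to repress Ezh2. Mir101c was in both promoter lists, and Mir101a and Mir101b, the other genes of that family, were in none of the peak lists. The others had a peak within 1 kb of the annotated start in the DHT list alone. The annotated genes are short: 69 bp for Mir7670, 75 bp for Mir101c, 96 bp for Mir30b and 122 bp for Mir466j. Their promoter windows thus lie around the short annotated gene, and the start of any longer transcript was not determined. The same windows enter the counts of CpG and repeats below. Mir7670 lies inside Ubn2 on the same strand. Ubn2 was in both gene body lists, and Mir7670 itself was in the DHT gene body list. Mature sequences of Mir101c, Mir7670 and Mir466j from RefSeq are given to show their seeds, in capitals.
mmu-miR-7670-5p (GRCm38.p6 chr6:38507325-38507346, plus strand): aUUCAGAUgggcagauugggaa
mmu-miR-7670-3p (GRCm38.p6 chr6:38507371-38507393, plus strand): uUCCCUUUcugaauaucuguaga
mmu-miR-101c (GRCm38.p6 chr9:3038680-3038698, minus strand): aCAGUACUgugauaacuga
mmu-miR-466j (GRCm38.p6 chr10:60960802-60960824, plus strand): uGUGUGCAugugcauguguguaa
mmu-miR-101a-3p (relative, for comparison): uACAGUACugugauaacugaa
The mature miR-101c, at 19 bases, is contained whole in the 21 bases of miR-101a-3p from base 2 on, so the seeds of these microRNAs are offset by 1 base. No other mature sequence in the table shares the seed of miR-101c, miR-466j or miR-7670-5p, and miR-7670-3p shares its seed with miR-204-5p and miR-211-5p.

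Because the mark is best known at CpG-rich promoters, the sequence 1 kb either side of each curated start was examined in GRCm38.p6. A promoter was called CpG-rich where its GC content was at least 50% and its observed to expected CpG ratio at least 0.6, at the start with the highest ratio. Of 54 DHT promoter genes 9 (16.7%) were CpG-rich, compared with 29.3% of all curated genes and 21 of 148 genes (14.2%) of the control promoter list alone. They included Furin, Bri3, Rasef, Gm11240, 3110070M22Rik, Tmem267 and Lactb, and all 9 were in the DHT list alone. The windows of Rasef and Gm11240 overlap, as do those of Tmem267 and 3110070M22Rik, so the 9 are not all separate promoters. Furin had the highest values, with 69.5% GC and a ratio of 0.861. Of the 10 genes in both promoter lists 0 qualified: Hint3 and Sfi1 had ratios of 0.651 and 0.623, at a GC content of 44.3% and 48.4%. The median CpG ratio was 0.339 for the 54 genes, 0.330 for the control promoter list alone and 0.454 for all genes. Among protein-coding genes 7 of 41 (17.1%) were CpG-rich, where all coding genes gave 33.2%. These differences were not tested.

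**Figure D3:**
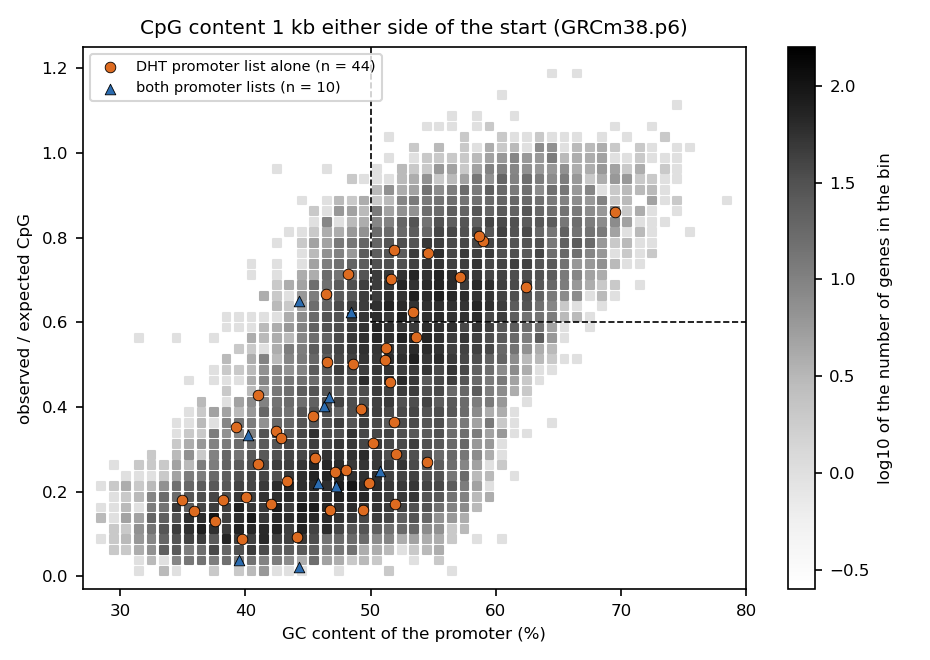
GC content (horizontal) and observed to expected CpG ratio (vertical) of the promoter, 1 kb either side of the start, for all curated RefSeq genes (grey squares, darker for more genes per bin on a log10 scale) and the DHT promoter genes (orange circles, DHT list alone; blue triangles, both lists). Above and to the right of the dashed lines lie the 9 CpG-rich genes, all orange.

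Sequences close to the start are shown for 6 of the 9 protein-coding genes named in both promoter lists. Tmem267, which had the highest CpG ratio in these windows, was added. Where the peaks lie relative to these sequences was not determined. Each runs from 250 bases before the start to 50 after it, from RefSeq, with CpG sites in capitals.
Hint3 (GRCm38.p6 chr10:30618317-30618616, minus strand): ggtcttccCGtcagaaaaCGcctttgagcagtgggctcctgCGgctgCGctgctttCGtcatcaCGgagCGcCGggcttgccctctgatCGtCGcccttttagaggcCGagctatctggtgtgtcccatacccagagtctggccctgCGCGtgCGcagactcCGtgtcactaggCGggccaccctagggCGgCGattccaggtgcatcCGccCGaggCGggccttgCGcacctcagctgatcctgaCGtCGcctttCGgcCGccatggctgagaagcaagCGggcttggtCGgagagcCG
Oasl1 (GRCm38.p6 chr5:114922990-114923289, plus strand): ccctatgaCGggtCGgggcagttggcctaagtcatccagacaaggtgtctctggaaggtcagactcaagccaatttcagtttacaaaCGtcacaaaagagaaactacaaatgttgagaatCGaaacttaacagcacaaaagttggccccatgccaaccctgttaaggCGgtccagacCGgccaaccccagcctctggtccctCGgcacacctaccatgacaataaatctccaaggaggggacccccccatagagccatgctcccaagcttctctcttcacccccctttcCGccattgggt
Olah (GRCm38.p6 chr2:3366520-3366819, minus strand): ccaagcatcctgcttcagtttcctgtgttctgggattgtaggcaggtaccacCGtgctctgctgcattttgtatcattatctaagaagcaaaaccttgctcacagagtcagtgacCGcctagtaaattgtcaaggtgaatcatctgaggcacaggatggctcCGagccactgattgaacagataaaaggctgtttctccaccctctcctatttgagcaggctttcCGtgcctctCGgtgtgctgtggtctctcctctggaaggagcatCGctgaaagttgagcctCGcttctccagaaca
Cd22 (GRCm38.p6 chr7:30878979-30879278, minus strand): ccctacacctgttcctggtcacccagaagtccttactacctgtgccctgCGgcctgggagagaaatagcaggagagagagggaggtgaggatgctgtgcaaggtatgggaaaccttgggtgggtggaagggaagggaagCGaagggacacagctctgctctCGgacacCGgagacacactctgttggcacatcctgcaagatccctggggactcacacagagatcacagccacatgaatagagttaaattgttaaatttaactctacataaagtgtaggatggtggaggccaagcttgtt
Dgkb (GRCm38.p6 chr12:37879924-37880223, plus strand): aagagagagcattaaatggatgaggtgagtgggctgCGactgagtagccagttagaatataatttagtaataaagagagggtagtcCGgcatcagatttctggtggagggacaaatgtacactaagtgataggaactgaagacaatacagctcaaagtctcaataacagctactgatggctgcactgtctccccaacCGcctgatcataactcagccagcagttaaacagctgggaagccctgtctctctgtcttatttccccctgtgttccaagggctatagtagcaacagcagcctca
4931408C20Rik (GRCm38.p6 chr1:26687411-26687710, minus strand): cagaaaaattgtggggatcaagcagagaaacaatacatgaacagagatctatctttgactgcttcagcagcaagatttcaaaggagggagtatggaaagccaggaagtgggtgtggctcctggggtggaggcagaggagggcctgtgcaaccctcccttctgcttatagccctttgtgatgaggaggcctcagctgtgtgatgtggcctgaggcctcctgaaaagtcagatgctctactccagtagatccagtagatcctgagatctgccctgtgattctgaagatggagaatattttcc
Tmem267 (GRCm38.p6 chr13:119488223-119488522, plus strand): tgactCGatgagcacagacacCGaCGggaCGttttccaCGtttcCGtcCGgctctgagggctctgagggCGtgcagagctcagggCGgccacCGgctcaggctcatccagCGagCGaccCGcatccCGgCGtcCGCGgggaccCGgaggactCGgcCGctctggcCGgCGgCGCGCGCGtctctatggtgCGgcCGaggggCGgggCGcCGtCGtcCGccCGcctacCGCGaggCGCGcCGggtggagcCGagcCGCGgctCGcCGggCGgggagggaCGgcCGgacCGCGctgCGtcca
In this narrow window 4931408C20Rik had 0 CpG sites, Dgkb 3, Cd22 4, Olah 7, Oasl1 8, Hint3 29 and Tmem267 50. Hint3, which fell short of the GC limit over the wider window, had 65.7% GC here. Over the 38 genes with such a sequence the median was 8 CpG sites per window (48 windows), against 7 for 32851 windows of all genes in the table. These counts are of another measure and of fewer genes than the CpG ratios over 1 kb either side, so the 2 comparisons cannot be set against each other.

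Repeats were examined in the same windows of 1 kb either side of the start, since reads from repeated sequence are harder to place. The median share of repeat-masked bases was 21.5% for the 54 genes (quartiles 17.7 and 31.1%), compared with 13.9% for all curated genes (quartiles 8.75 and 20.8%) and 16.6% for the control promoter list alone. It was 30.9% for the 10 genes of both promoter lists and 20.8% for the 44 of the DHT list alone. More than 30% of bases were repeats, a limit set after the values had been seen, in 16 of 54 genes (29.6%), against 9.54% of all genes. These included 6 of the 10 genes in both lists: Mir101c (66.1%), Cldn34c4 (37.03%), Sfi1 (37.01%), Sp7 (36.3%), 4931408C20Rik (31.8%) and Oasl1 (30.1%). Among the genes of the DHT list alone, Alox5ap (41.3%), Zan (40.5%), Rnf181 (39.4%) and 4933404K08Rik (38.7%) had the highest shares.

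**Figure D4:**
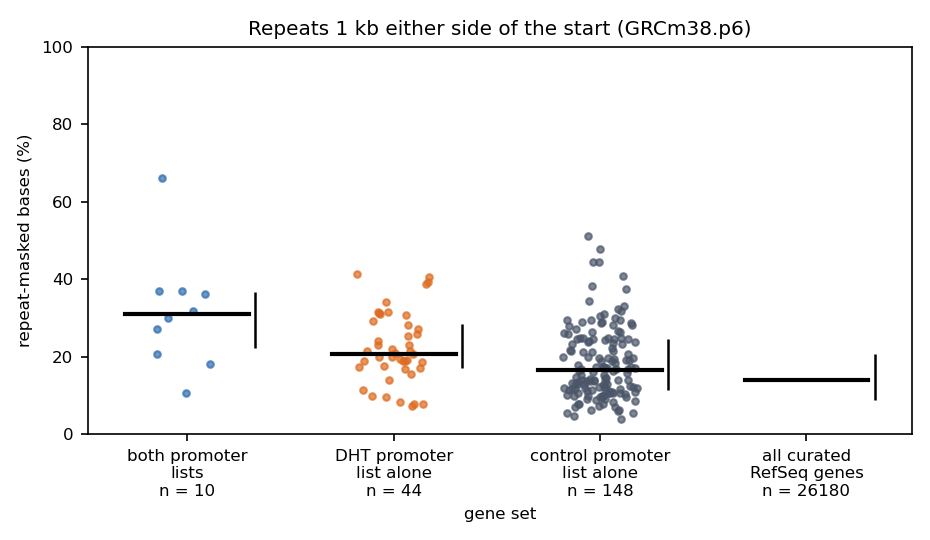
Points give the percentage of repeat-masked bases in the promoter of each gene, thick horizontal lines the median and thin vertical lines the quartiles of each set (all curated genes without points). The medians run from 30.9% in genes of both promoter lists through 20.8% and 16.6% to 13.9% in all genes.

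Exact copies of promoter sequence were counted as well. Of all 32-base words in these promoters, the median share with a further exact copy on the GRCm38.p6 chromosomes was 2.56% for the 54 genes, and 1.55% for all genes. It was 4.82% for genes of both promoter lists, 2.08% for the DHT list alone and 1.65% for the control list alone, the same order as for repeats. The share of genes above 10%, a limit also set after the values had been seen, was not higher than in all genes: 6 of 54 genes (11.1%), where all genes gave 18.8%. Among the 10 genes of both lists it was 2 (20%). The 6 genes were Mir101c (64.6%), 4933404K08Rik (22.2%), Tmem267 (16.9%), 3110070M22Rik (15.7%), Sfi1 (13.1%) and Mir30b (10.1%). The windows of Tmem267 and 3110070M22Rik overlap. Rn45s has no position in the assembly used, and ribosomal RNA genes are present in many near-identical copies. For Mir101c the median word occurred 3 times, while for the other 5 genes above 10% the median word occurred once, and the authors kept uniquely mapped reads. Where in these promoters the peaks lie was not determined, and the part of repeats or copies in the calls was not tested. Without these 6 genes and Rn45s, 8 of 48 (16.7%) were also in the control promoter list, 25 (52.1%) in the DHT gene body list and 10 (20.8%) in the control gene body list.

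Finally, the genes were placed by chromosome. Chromosome 5 held 8 of the 54 placed genes (14.8%), namely Oasl1, Vmn2r16, Brdt, BC037156, Bri3, Alox5ap, Zan and Myo1h, while it held 6.36% of DHT peaks and 5.70% of curated genes. Chromosomes 4 and 13 held 6 genes each (11.1%), with 5.84% and 5.03% of DHT peaks. Each of them includes a divergent pair that could rest on a single peak (Rasef with Gm11240, and Tmem267 with 3110070M22Rik). Those on chromosome 4 included Myom3, Bsnd, Rasef, Atg4c and Gm11240. Chromosome 1 had the most DHT peaks (312) and 1 gene, 4931408C20Rik. Chromosome X held 3 genes, Ids, Gm732 and Cldn34c4, at 4.68% of DHT peaks. Chromosomes 14, 19 and Y held 0. With 54 genes over 21 chromosomes the counts are small, and they were not tested.

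**Figure D5:**
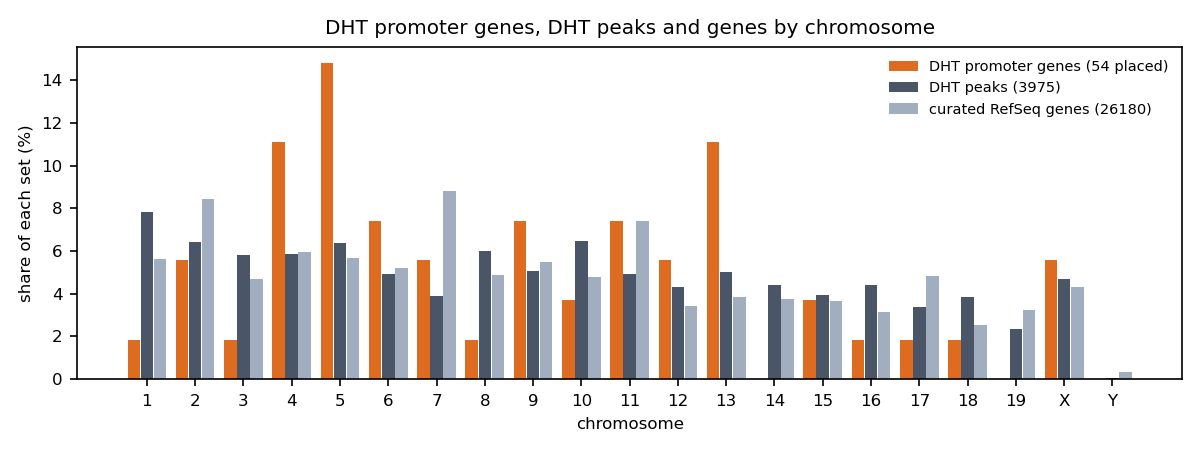
For each chromosome (horizontal) the bars give the percentage of the 54 placed DHT promoter genes (orange), of the 3975 DHT peaks (dark) and of the 26180 curated genes (grey) that lie on it. The orange bar is highest on chromosome 5, at 14.8%, and absent on 14, 19 and Y.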

How the data were processed

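H3K27me3 ChIP-seq was done on 3 control and 3 DHT-treated samples of granulosa cells. Per the submitters' processing notes and the methods of the study, the authors mapped reads to mm9 (Bowtie2 2.3.4), kept unique reads and called broad peaks with MACS2 (2.1.1) at a q-value of 0.05 or less. For each peak the deposited files give a score, a fold enrichment (a ratio to the local background) and a −log10 q-value, of which the last was used here, with the number of peaks. The methods say that duplicate reads were removed, while the peak names carry the setting that keeps a number of duplicates set by the caller. There is 1 pooled list per group, and how replicates were combined is not given in the sources used here. The deposited gene lists hold symbols without values, and the annotation behind them is not given either.

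Members were taken by symbol from the DHT promoter list. Background shares were counted over 26180 genes with a curated RefSeq transcript on the chromosomes of GRCm38.p6. Peaks were not compared with GRCm38.p6 positions, since the builds differ. That assembly gave names, lengths, neighbours and sequence. Windows of 1 kb either side of all curated starts of a gene were merged for repeats (soft-masked bases) and for 32-base words occurring more than once on either strand. CpG content had been planned on the RefSeq promoter table, which holds 38 of the 55 members, so these windows were used for it as well, at the start with the highest ratio. The word count was tested on simulated sequence. Length classes and the limits of 30% repeats and 10% repeated words were set after the values had been seen. Python 3.11.15, numpy 2.4.6, pandas 2.3.3, numba 0.67.0 and matplotlib 3.10.9 were used.

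No test across samples was possible with pooled lists, so shares are described beside those of all genes. Some members are counted and not reported here by name, and are not drawn in the plot of list entries. Sequences were printed for coding members of both promoter lists and for the highest and lowest CpG ratio. Alternatives covered symbol matching, placeholder names, gene type, autosomes, CpG limits and q-values. The members, families and classes were chosen with earlier results of these data known. Upper limits for counts of 0 use 3 counts and cover counting error only.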

Additional observations from a re-analysis of the deposited data

How the results depend on the processing

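No paired analysis was possible because the files hold 1 pooled list per group, and nothing for a single sample. Leaving out each replicate, though planned, could not be run either. Over 8 results, 30 alternatives were computed, of which 28 stayed within the range set for them: the 95% Wilson interval of a share, or 1.5 times a ratio or length. Many alternatives keep a subset of the same members, and the interval is wide at 55 members, so staying within it says little of stability. The share of CpG-rich members could fall from 16.7% to 9.26% and still lie within it. For the lists of regulated genes, alternatives that keep a subset of the members could give nothing but 0, and say nothing of stability. The other 2 concern the ratio of DHT to control peaks, which moved from 24.3% to 41.4% with q-values up to 0.01 and 70.4% with q-values up to 0.001. A promoter list at stricter q-values was not made, as peaks could not be assigned to genes. Leaving out members with repeated promoters and using the outermost start alone were alternatives chosen after seeing the data. With a CpG ratio of at least 0.75, 9.26% of members and 12.6% of all genes were CpG-rich, a smaller gap than at 0.6. With a GC content of at least 55%, the shares were 9.26% and 20.4%. Read depth is unknown, so absence from a list does not show that the mark was absent.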
